A study of Mus musculus with 10 samples.

Results

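The 10 genes described here encode the matrix of the endocardial cushions and heart valves or proteins that make, cut or control it. They are the hyaluronan synthase *Has2*, the hyaluronan-binding proteoglycan gene *Vcan* (versican), the link protein gene *Hapln1*, the matricellular genes *Postn* (periostin) and *Tnc* (tenascin C), the tenascin X gene *Tnxb*, the elastin gene *Eln*, the serine protease gene *Htra3*, and the transcription factor genes *Sox9* and *Nfatc1*. They were chosen by symbol, 10 of 23195 genes in a table that compares *Nos1ap* null with wild-type hearts, and they were selected with the difference between the genotypes already known. *Tnxb* and *Htra3* were picked because they stood high in that comparison, so that differences between genotypes are given for these genes as descriptions. Where they entered the fit over all genes, their calls are counted and nothing is read from them.

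The libraries were made from polyadenylated RNA of hearts dissected at embryonic day 13.5 (E13.5) from male mice, labelled C57BL6/J. There were 5 wild-type males and 5 *Nos1ap* null males. The null hearts carried the tm1d allele on both chromosomes, a constitutive loss of exon 4 of *Nos1ap* made with CMV-Cre from a floxed tm1c allele, itself derived with ACTB-Flpe from a knockout-first allele in C57BL/6N embryonic stem cells and backcrossed to C57BL/6J. *Nos1ap* encodes an adaptor protein of neuronal nitric oxide synthase. Whole hearts were used and valves were not isolated. In such bulk samples, fewer cells of a type and less RNA per cell cannot be told apart.

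Valves arise from the cushions, swellings of gel-like matrix between the endocardium and the myocardium of the atrioventricular canal and the outflow tract. Hyaluronan made by HAS2 binds versican, and link protein steadies that binding. Endocardial cells, in which NFATC1 acts, line the cushion, and some of them turn into mesenchyme that depends on SOX9. This mesenchyme later lays down periostin and tenascins. Elastin is found above all in the outflow vessels.

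Levels are normalized read counts, which are read counts divided by a size factor of the library. The table gives the mean of each genotype. Those means were precise enough to derive the counts of single libraries for *Tnxb*, *Htra3*, *Has2* and *Nfatc1* in both genotypes and for *Sox9* in the null hearts. The other 5 genes are given as the authors' group means, with no error. Libraries are numbered 1 to 5 within a genotype by falling size factor, which is not the replicate number of the labels. The size factors ran from 0.918 to 1.15, and the group means summed to 12199353 normalized counts in wild type and 12337575 in the null group.

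*Nos1ap* itself was at 126 to 161 normalized counts in wild type and at 31.1 to 44.4 in the null libraries. The groups did not overlap. The summed means of 6 cardiomyocyte markers (263780 in wild type and 268963 in null) marked the tissue as heart. Wild-type library 3 stood apart. It held 141 normalized counts of *Sox10*, a marker of neural crest and glia, against at most 16.2 in the other 9 libraries. It also held 206 of the smooth muscle gene *Myh11*, against at most 69.1 elsewhere. Null library 2 had the lowest sum of 7 cartilage markers, 530 against 785 to 1091 in the other 9. The differences of the 4 genes with library values in both genotypes are given with and without these libraries. So is the correlation of *Has2* and *Nfatc1*.

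Levels were compared per kilobase of exon, with every annotated exon base of a gene counted once over all its transcripts. Orders and shares by this measure depend on which exons are annotated. *Eln* was the highest, with group means of 1584 normalized counts per kilobase in wild type and 1468 in null. *Postn* followed with 593 and 610, and *Vcan* with 373 and 363. A middle group held *Hapln1* (180 and 178), *Sox9* (174 and 164), *Tnc* (152 and 142) and *Nfatc1* (122 ± 9.02 and 124 ± 8.20, SD, n = 5). The lowest were *Tnxb* (52.7 ± 7.38 and 65.9 ± 3.27), *Has2* (40.9 ± 12.6 and 39.4 ± 9.18) and *Htra3* (18.8 ± 1.73 and 13.3 ± 2.22, SD, n = 5 each). The order was the same in both genotypes. *Tnxb* and *Has2* were not separated by their spread in wild type, where *Has2* ran from 23.4 to 54.9 per kilobase and *Tnxb* from 41.9 to 60.1. In the null hearts the *Tnxb* range of 60.9 to 69.5 lay above the *Has2* range of 28.5 to 53.5. Whether *Hapln1*, *Sox9* and *Tnc* differ in level beyond their spread cannot be said, since their wild-type values are group means.

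**Figure D1:**
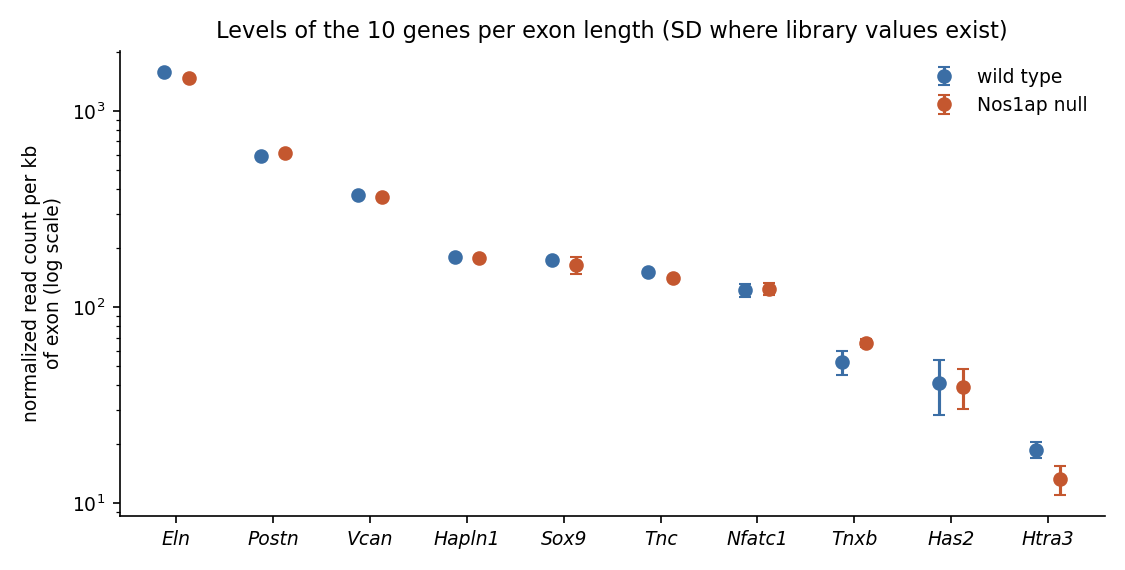
Level of each gene as normalized read count per kilobase of exon on a log axis, for wild type and *Nos1ap* null. Points are group means and bars are the SD over 5 libraries, drawn only where library values exist. The order from *Eln* (1584 in wild type) down to *Htra3* (18.8) is the same in both genotypes.

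The difference between the genotypes was small in 8 of the 10 genes. As the ratio of group means on the log2 scale, 3 genes were higher in null and 7 were lower, with a median of -0.05. Over all 13299 protein-coding genes whose mean reached 10, 6588 were higher and 6711 lower, and the median was -0.00093. The absolute log2 difference exceeded 0.2 in 2 of the 10, *Tnxb* and *Htra3*, and in 9.35% of those 13299 genes. The median absolute log2 difference was 0.07 in the 10 genes and 0.05 in all. In limma, no member passed the thresholds of the study, an adjusted *P* under 0.01 with an absolute log2 fold change over 1. This holds for the 4 of 10 members that could be tested, and 0.0289% of the 10395 genes tested passed (*Nos1ap*, *Mt2* and *Gm7694*). Since the members were chosen with this contrast known, nothing is read from their count.

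*Tnxb* encodes tenascin X, a large glycoprotein of loose connective tissue that binds collagen. It lies on chromosome 17 (GRCm38, chr17:34670535-34719815, plus strand), where its exons share 3 bases with the pseudogene *Cyp21a2-ps* on the opposite strand. In the wild-type libraries 1 to 5 it was at 612, 734, 511, 719 and 641 normalized counts, and in the null libraries at 849, 792, 743, 820 and 820. The lowest null library lay just above the highest wild-type library, so that the groups did not overlap. The means were 643 ± 90.1 in wild type and 805 ± 39.9 in null (SD, n = 5), a difference of 0.32 on the log2 scale. The coefficient of variation was 14.0% in wild type, above the 3.91% that counting alone gives, and 4.96% in null against 3.55%. Wild-type library 3, with its neuronal and glial RNA, had the lowest value. Without wild-type library 3 the difference was 0.25, and without that library and null library 2 it was 0.26. Of 2882 protein-coding genes with a mean within a factor of 1.5 of *Tnxb*, 12 had a larger absolute log2 difference. As *Tnxb* was picked on this contrast, that number is given for scale alone. The wild-type counts of *Tnxb* are the least settled of those used for the 10 genes, with 0.0178 other sets of counts expected as near.

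*Htra3* encodes a secreted serine protease of the HtrA family that cuts matrix proteins. Its gene lies on chromosome 5 (chr5:35652023-35679782, minus strand). The wild-type libraries held 92.2, 81.3, 77.4, 90.8 and 75.5 normalized counts and the null libraries 59.4, 65.4, 45.4, 70.9 and 54.5. Every null library was below every wild-type library, with a gap from 70.9 to 75.5. The means were 83.4 ± 7.68 in wild type and 59.1 ± 9.85 in null (SD, n = 5), a log2 difference of -0.50. These are few reads, between 45 and 106 a library. The coefficients of variation, 9.20% and 16.7%, were close to the 10.8% and 13.1% that counting alone gives. Of 1350 genes of like level, 48 had a larger absolute log2 difference. Without wild-type library 3 and null library 2 the difference was -0.56. Leaving out any single library kept the log2 difference between -0.57 and -0.42. *Tnxb* and *Htra3* were thus 2 of the 4 members with library values whose groups did not overlap, against 0.789% of the 10395 genes tested. As these genes were picked on this contrast, that share and the number among genes of like level are given for scale alone.

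**Figure D2:**
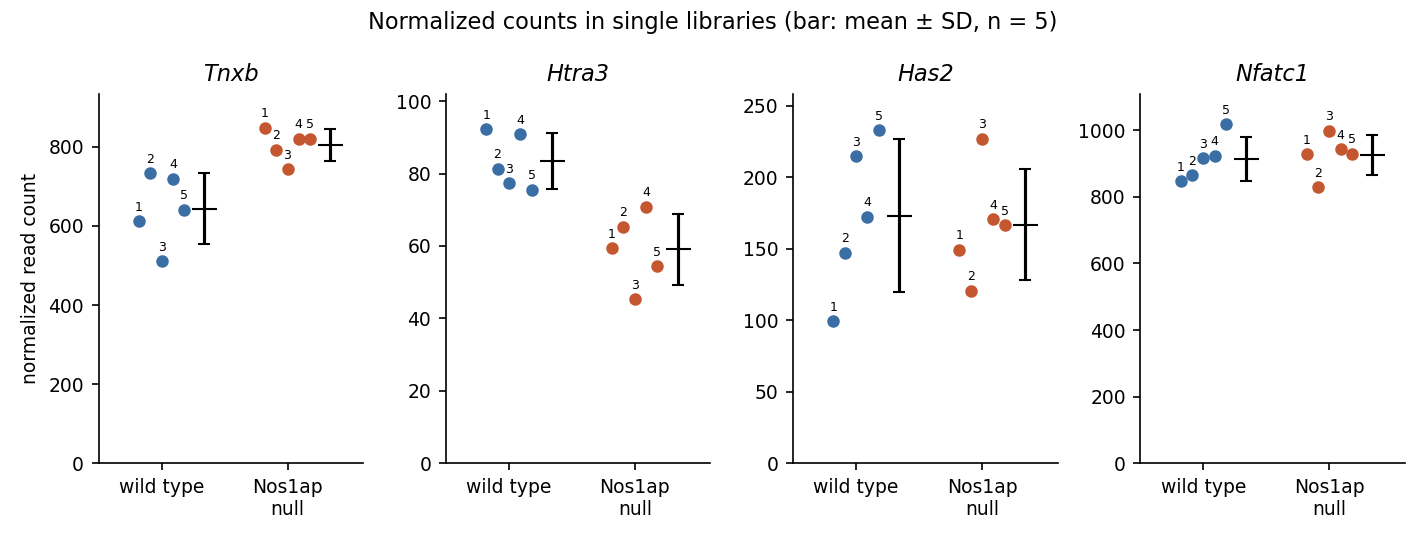
Normalized read counts of *Tnxb*, *Htra3*, *Has2* and *Nfatc1* in 5 wild-type and 5 *Nos1ap* null libraries. Numbers are library numbers, and bars are the mean and SD over 5 libraries. The groups are apart for *Tnxb* (511 to 734 against 743 to 849) and *Htra3* (75.5 to 92.2 against 45.4 to 70.9) and overlap for *Has2* and *Nfatc1*.

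The 250 bases before the start of these genes are shown because they had the largest differences of the 10. They were read from RefSeq (GRCm38.p6), whose table used here held 6 of the 10 genes. Capitals mark matches to the core that NFAT factors bind, which reads GGAAA on the printed strand or TTTCC where the core lies on the other strand. Matches to the core of SOX factors, which reads ACAAT or, on the other strand, ATTGT, were marked likewise (no match overlaps another here). *Tnxb*, chr17:34670285-34670534, plus strand, holds 1 match to the NFAT core, and *Htra3*, chr5:35679781-35680030, minus strand, holds none to either.
Tnxb: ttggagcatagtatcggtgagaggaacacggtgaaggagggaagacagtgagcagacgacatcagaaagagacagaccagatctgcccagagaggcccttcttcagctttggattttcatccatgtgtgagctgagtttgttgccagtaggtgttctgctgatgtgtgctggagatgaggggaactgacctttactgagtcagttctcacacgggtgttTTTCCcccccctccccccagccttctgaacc
Htra3: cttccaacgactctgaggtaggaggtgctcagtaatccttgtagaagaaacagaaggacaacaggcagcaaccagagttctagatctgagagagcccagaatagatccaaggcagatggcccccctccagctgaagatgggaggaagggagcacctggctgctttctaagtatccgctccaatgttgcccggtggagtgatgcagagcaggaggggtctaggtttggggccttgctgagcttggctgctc
Of 32851 promoters of this length, 55.6% hold the NFAT core and 27.7% the SOX core, so that a match is common and describes the letters only.

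*Has2*, the main hyaluronan synthase of the cushions, lies on chromosome 15 (chr15:56665627-56694539, minus strand). It was at 99.2, 147, 215, 172 and 233 normalized counts in the wild-type libraries and at 149, 121, 227, 171 and 167 in the null libraries. The groups overlapped almost fully. The means were 173 ± 53.5 and 167 ± 38.9 (SD, n = 5), a log2 difference of -0.05. Its sign turned with single libraries, to 0.04 without wild-type library 3 and to 0.13 without wild-type library 3 and null library 2. Libraries of the same genotype differed far more than the genotypes did. The highest wild-type library was 2.35 times the lowest and the highest null library 1.88 times the lowest. The coefficients of variation of 30.9% and 23.3% stood against 7.60% and 7.81% from counting alone. Exons of *Has2* share 182 bases with *Has2os* on the opposite strand, and reads were counted by strand.

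The sum of 7 cartilage markers moved with *Has2*. It was 785, 915, 1037, 952 and 1091 normalized counts in wild-type libraries 1 to 5, the same order as *Has2*. In the null libraries it was 855, 530, 957, 910 and 851, lowest in library 2 and highest in library 3, as for *Has2*. *Acan* and *Comp* are in this sum and also in the valve and cushion lists below. Whether the sum stands for other tissue or for the cushions, and its part in the *Has2* values, was not tested.

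*Vcan* and *Hapln1*, whose products bind hyaluronan, lie tail to tail on chromosome 13 (*Vcan* at chr13:89655312-89742509, minus strand, and *Hapln1* at chr13:89539796-89611652, plus strand). The group mean of *Vcan* was 5396 in wild type and 5249 in null, a log2 difference of -0.04. For *Hapln1* the means were 1064 and 1052, a log2 difference of -0.02. Among all protein-coding genes whose mean reached 10, 57.3% had a larger absolute difference than *Vcan* and 80.5% a larger one than *Hapln1*.

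*Postn* and *Tnc* encode matricellular proteins, which tune how cells hold to the matrix. *Postn* (chr3:54361109-54391037, plus strand) had group means of 5160 in wild type and 5305 in null, a log2 difference of 0.04. *Tnc* (chr4:63959785-64047015, minus strand) had 1180 and 1101, a log2 difference of -0.10. *Eln* (chr5:134702593-134747323, minus strand), the core of elastic fibres, had 12828 and 11884, a log2 difference of -0.11. Among all protein-coding genes whose mean reached 10, 23.9% had a larger absolute difference than *Tnc* and 21.3% a larger one than *Eln*. Low genes vary more, and among genes with a mean within a factor of 1.5 these numbers were 95 of 2200 for *Tnc* and 3 of 83 for *Eln*. Without library values it cannot be said whether they exceed the spread between hearts. *Tnc* shares 176 exon bases with *8030451A03Rik* and *Eln* 267 with *Gm30003*, each on the opposite strand.

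*Sox9*, which cushion mesenchyme needs to expand, lies on chromosome 11 (chr11:112782224-112787760, plus strand). Its group means were 721 in wild type and 680 in null, a log2 difference of -0.09. In the null libraries it was at 639, 614, 772, 737 and 638 normalized counts, with an SD of 69.7. It was lowest in library 2 and highest in library 3, as *Has2* was. The wild-type counts were not settled. The set nearest to equal expression gives 585, 609, 845, 632 and 936 normalized counts, but 0.188 other sets are expected as near, and it enters no test.

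*Nfatc1* encodes a calcineurin-controlled factor that marks the endocardium of the cushions and is needed for valves to form. It was at 846, 864, 916, 924 and 1019 normalized counts in wild type and at 928, 830, 999, 944 and 930 in null. The groups overlapped, with means of 914 ± 67.3 and 926 ± 61.2 (SD, n = 5) and a log2 difference of 0.02, or 0.06 without wild-type library 3 and null library 2. The coefficients of variation were 7.37% and 6.61%, and counting alone gives 3.29% and 3.31%.

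Differences among libraries of the same genotype did not choose the genes, and they could be tested. After subtraction of the genotype mean, the log2 values of *Has2* and *Nfatc1* moved together over the 10 libraries. Pearson's *r* was 0.88, with a two-sided permutation *P* of 0.00284 and an adjusted *P* of 0.0170 over the 6 pairs of the 4 genes. Spearman's rho was 0.92, with a permutation *P* of 0.00111 and an adjusted *P* of 0.00666. The correlation was 0.85 within the wild-type libraries and 0.95 within the null libraries. In wild type *Nfatc1* rose from library 1 to library 5, the order of falling size factor. *Has2* was lowest in wild-type library 1 and highest in library 5. The null libraries did not follow that order. With scaling by median ratios *r* was 0.87, and the part of the size factors was not tested further. Without the libraries farthest from the median of *Has2*, wild-type library 1 and null library 2, *r* was 0.86 (exact permutation *P* of 0.00868, 8 libraries). Without null library 2 alone *r* was 0.87, and the adjusted *P* rose to 0.0792 in an exact permutation test. Without wild-type library 3 and null library 2 *r* was 0.93, with an adjusted *P* of 0.0104 in an exact permutation test.

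*Htra3* went the other way from *Has2*, with *r* of -0.66 and rho of -0.64. The permutation *P* was 0.0253 and 0.0534, and after adjustment 0.0760 and 0.160, so that the pair did not pass. Without null library 4 it did, with *r* of -0.83 and an adjusted *P* of 0.0208 in an exact permutation test. For *Htra3* and *Nfatc1*, *r* was -0.58 and rho -0.50 (permutation, adjusted *P* of 0.184 and 0.330). *Tnxb* had no pair that passed, with *r* of 0.33 to *Htra3*, -0.28 to *Has2* and -0.11 to *Nfatc1* (permutation, adjusted *P* of 0.339, 0.669 and 0.779).

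**Figure D3:**
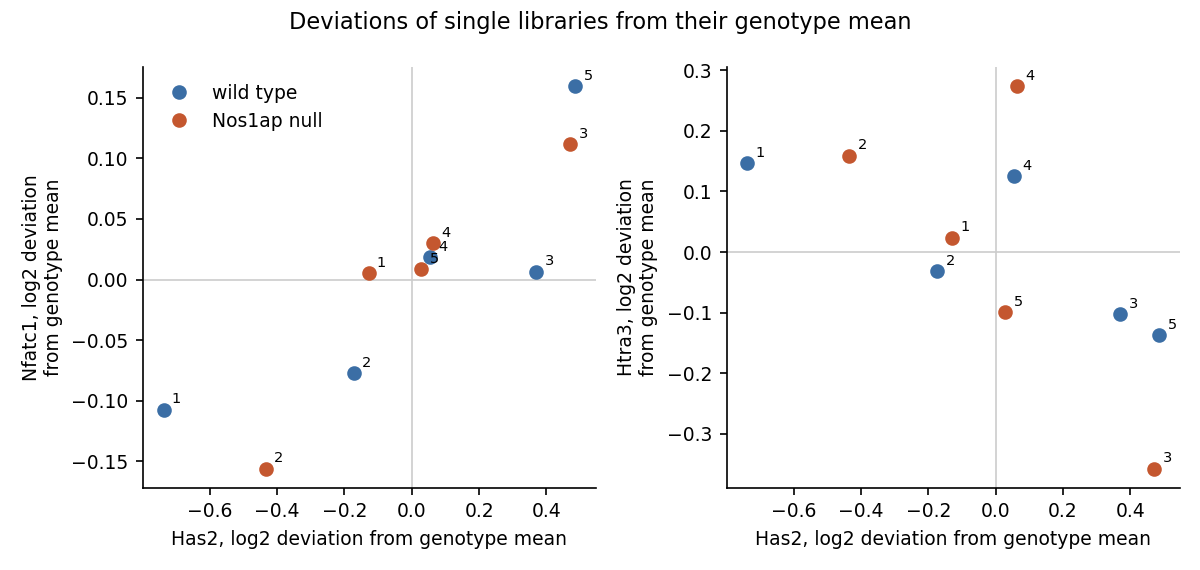
Deviation of each library from its genotype mean on the log2 scale, with *Has2* on the x axis and *Nfatc1* (left) or *Htra3* (right) on the y axis. Numbers are library numbers. *Nfatc1* rises with *Has2* in both genotypes (*r* of 0.88 over 10 libraries), and *Htra3* falls with it (*r* of -0.66, which did not pass after adjustment).

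A few list genes had a pattern like that of *Has2* over the same 10 libraries, which is a description with no test. Of 45 genes from the 6 valve and cushion lists below that had library values, 4 had an *r* of at least 0.8 to *Has2*, against 1.95% of 10391 tested genes. They were *Msx2* (0.89) and *Prrx1* (0.85), homeobox genes of mesenchyme, *Cyr61* (0.83), also called *Ccn1*, and *Ugdh* (0.80), whose enzyme makes a precursor of hyaluronan. The median *r* to *Has2* was 0.42 in the lists and 0.03 in all tested genes. For *Nfatc1* 4 list genes also reached 0.8, *Prrx1*, *Hyal2*, *Nfatc4* and *Adamts15*, and the medians were 0.48 and -0.0012. No list gene reached 0.8 with *Tnxb* or *Htra3*. None of the 6 proteoglycan and 3 elastic fibre genes with library values reached it with any of the 4, too few for the absence to be read. The cartilage marker sums given above moved with *Has2* and *Nfatc1* too, lowest in wild-type library 1 and null library 2 and highest in wild-type library 5 and null library 3, and their part in these patterns was not tested. Without wild-type library 3 and null library 2, 3 list genes reached 0.8 with *Has2* (3.29% of tested genes), 4 with *Nfatc1* (2.42%) and 1, *Ltbp2*, with *Tnxb*, and the median *r* of the lists was 0.27 to *Has2* and 0.24 to *Nfatc1*. Over all tested genes, those most like *Has2* were *Zfp526* (0.96), *Slc39a10* (0.95) and *Dpm1* (0.95), and those most like *Nfatc1* were *Hook3* (0.97), *Dse* (0.96) and *Fv1* (0.95). The genes of this paragraph were named after their values were seen.

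The genes were set beside relatives from the lists, by level per kilobase. *Has2* made up 89.2% of the summed level of the 3 hyaluronan synthases in wild type and 89.0% in null. *Has3* was at 4.64 ± 0.33 and *Has1* at 0.32 ± 0.38 per kilobase in wild type (SD, n = 5). *Has1* had 7 reads in the 5 wild-type libraries together and 6 in the 5 null libraries. *Hapln1* made up 95.9% and 96.5% of the sum over *Hapln1*, *Hapln3* and *Hapln4*, the link protein genes compared. *Vcan* made up 96.0% and 97.0% of the 4 lecticans, the family of *Acan*, *Ncan* and *Bcan*.

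*Sox9* stood at 174 per kilobase in wild type, above *Sox6* (16.3 ± 1.06) and *Sox5* (9.71 ± 0.89, SD, n = 5), which act with it in cartilage. It was not set beside the whole *Sox* family, of which *Sox4* had the higher group mean (4201 against 721 in wild type). *Nfatc1* led the 4 calcineurin-controlled NFAT genes with 39.5% of their sum in wild type and 41.3% in null. Its level of 122 ± 9.02 per kilobase in wild type compared with 76.1 ± 10.1 for *Nfatc4*, 63.6 ± 2.33 for *Nfatc3* and 47.4 ± 4.19 for *Nfatc2* (SD, n = 5). *Nfatc1* lies on chromosome 18 (chr18:80606205-80713071, minus strand).

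*Tnxb* and *Htra3* did not lead the relatives compared. Of the summed tenascin level, *Tnxb* held 25.7% in wild type and 31.7% in null, and *Tnc* held 74.1% and 68.1%. *Tnr* and *Tnn* were each under 0.3 per kilobase. *Htra3* held 4.68% of the HtrA level in wild type and 3.48% in null, below *Htra1* (207 and 199 per kilobase) and *Htra2* (174 ± 10.9 and 169 ± 2.43, SD, n = 5). *Postn* stood above its relative *Tgfbi*, at 593 against 439 per kilobase in wild type and 610 against 401 in null.

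**Figure D4:**
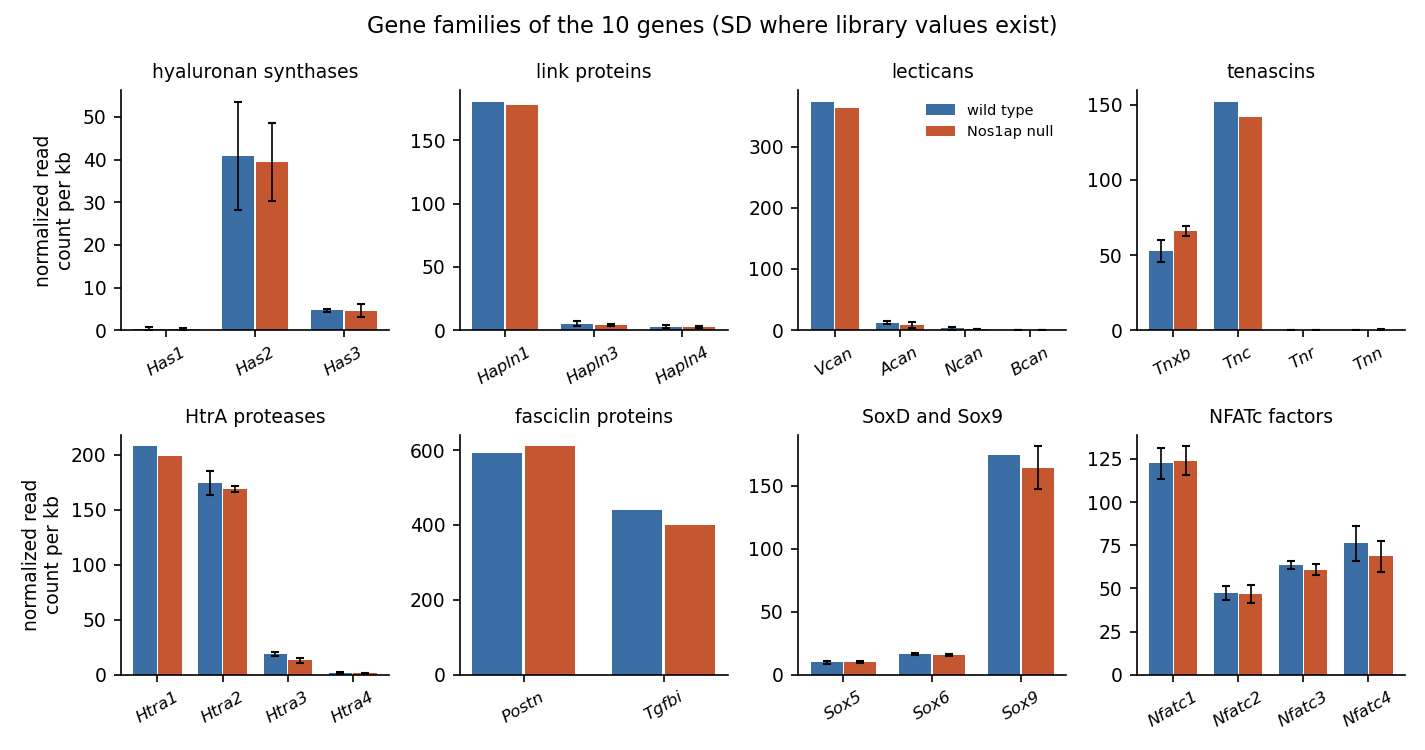
Level per kilobase of exon in 8 sets of related genes, for wild type and *Nos1ap* null. Bars are group means and error bars the SD over 5 libraries, drawn only where library values exist. *Has2*, *Hapln1* and *Vcan* stand far above the relatives drawn, as *Sox9* does above *Sox5* and *Sox6*, and *Tnxb* and *Htra3* do not lead theirs. Other *Sox* genes are not drawn.

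Other genes of the same roles were taken from 6 lists of 91 genes, none of them among the 10, of which 86 reached a mean of 10 and 45 had library values for the test. None of the 45 passed the thresholds of the study. At an unadjusted *P* under 0.05 in limma, 4 of 45 did, 1 higher and 3 lower in null, against 3.49% of all tested genes (1.68% higher and 1.81% lower). The smallest adjusted *P* among the 45 was 0.998. None of these 45 had groups that did not overlap, against 0.789% of the 10395 genes tested. At that share, 45 genes are too few for the absence to be read. Of the 86 genes, 37 were higher and 49 lower in null, with a median log2 difference of -0.02 and a median absolute difference of 0.07.

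Among hyaluronan genes, 3 of 11 were higher and 8 lower in null, with a median of -0.01, and none of the 8 tested had an unadjusted *P* under 0.05. The most abundant were *Tmem2* (also *Cemip2*), a hyaluronan-cutting cell surface protein, with group means of 2471 and 2541, and the hyaluronan receptor gene *Hmmr* with 1093 and 1130. Among proteoglycans, 7 of 11 were higher and 4 lower, with a median of 0.0036, and none of 6 tested had a *P* under 0.05. The basement membrane gene *Hspg2* (perlecan) stood at 18968 in wild type and 19833 in null, and *Gpc3*, a glypican, at 6353 and 6418.

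In the list of versican-cutting proteases, HtrA relatives and inhibitors, 7 of 12 were higher and 5 lower, with a median of 0.02, and none of 7 tested had a *P* under 0.05. *Timp3*, an inhibitor of matrix proteases, stood at 2393 and 2538, and the gelatinase gene *Mmp2* at 2138 and 2309. In the elastic fibre list, 7 of 17 were higher and 10 lower, with a median of -0.04, and none of 3 tested had a *P* under 0.05. The fibrillin gene *Fbn2* was at 5648 and 5493 and the cross-linking enzyme gene *Loxl2* at 5132 and 5390.

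The matricellular list held 3 of the 4 genes under *P* of 0.05 in limma, among 4 tested. *Cyr61* was higher in null, 666 ± 50.8 against 587 ± 77.4 (SD, n = 5), with an unadjusted limma *P* of 0.0362. *Spp1* (osteopontin) was at 12.9 ± 4.65 against 20.4 ± 5.54 (limma *P* of 0.0267), and *Comp*, a cartilage matrix gene, at 38.2 ± 3.20 against 47.6 ± 5.37 (limma *P* of 0.0421). In this list 6 of 10 genes were higher and 4 lower, with a median of 0.05. Its most abundant genes were *Sparc*, at 15080 in wild type and 15018 in null, and *Thbs1*, at 2834 and 3010.

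Among cushion factors and calcineurin genes, 7 of 25 were higher and 18 lower in null, with a median log2 difference of -0.06. Of all 13299 protein-coding genes whose mean reached 10, 6588 were higher and 6711 lower, and the direction counts of the lists were not tested. *Scx*, a factor of tendon and valve connective tissue, was the only gene of 17 tested with an unadjusted *P* under 0.05, at 70.1 ± 14.8 in null against 88.8 ± 15.6 in wild type (SD, n = 5, limma *P* of 0.0395). The most abundant were *Tbx20*, at 5824 in wild type and 6255 in null, and *Sox4*, at 4201 and 4008. These 4 genes depended on single libraries. Leaving out 1 library left between 0 and 4 list genes at a *P* under 0.05, 0 of them without wild-type library 4. Without wild-type library 3 and null library 2 together, 6 list genes were under it.

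**Figure D5:**
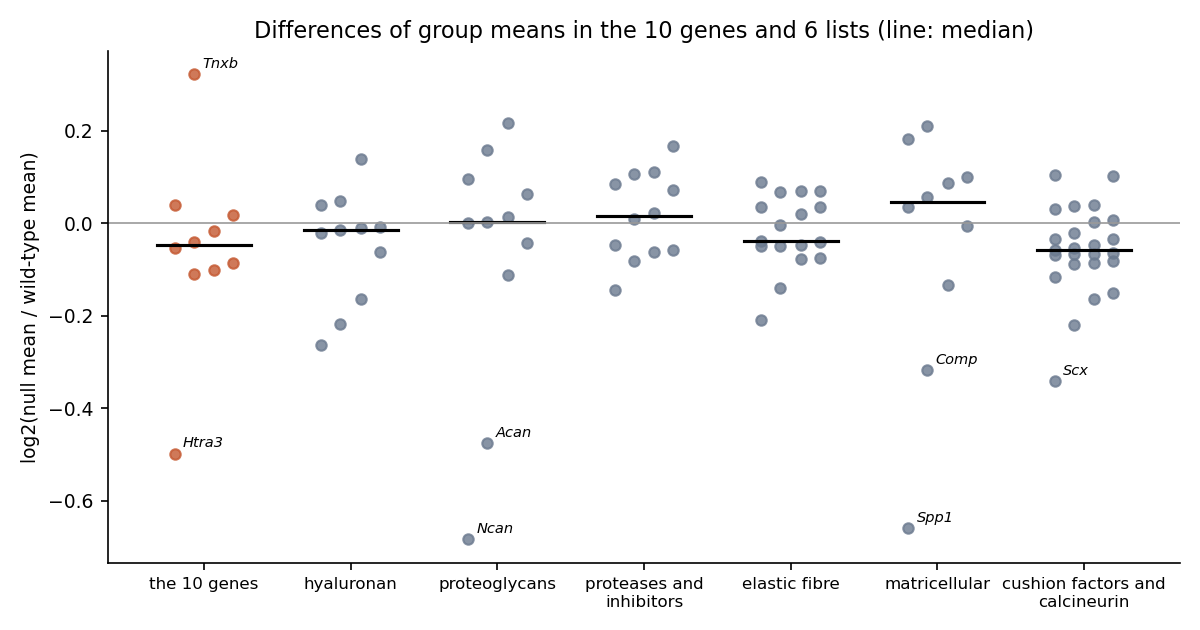
Log2 ratio of the null group mean to the wild-type group mean for the 10 genes and for each of 6 lists, 1 point a gene, with the median as a line. Genes over 0.3 in size are named. The medians lie between -0.06 and 0.05, and *Tnxb* (0.32) and *Htra3* (-0.50) lie apart from the other 8 genes.

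Markers of cells that cushions and valves touch were set beside these values. The summed group means of 6 endothelial markers were 10737 in wild type and 11072 in null, those of 5 smooth muscle markers 18597 and 18053, and those of 5 epicardial markers 3708 and 3918. For 8 cartilage markers they were 2452 and 2371. Larger differences between group means stood in neuronal and glial markers (1249 and 275) and in erythroid markers (63270 and 84006). Lung epithelium markers summed to 12.0 and 5.40, with *Sftpc* and *Nkx2-1* without a row. Wild-type library 3 carried much of these differences. Over the 4 neuronal and glial markers with library values the mean sum was 208 in wild type and 117 in null, and 126 in wild type without it. For the lung epithelium markers the wild-type mean was 7.57 without it. The part of these cells in the values of the 10 genes was not tested.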

How the data were processed

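Hearts of 5 wild-type and 5 *Nos1ap* null males were grouped by the genotype in the labels. The authors trimmed reads with Trimmomatic (version 0.36), aligned them to GRCm38 transcripts of GENCODE release M10 with STAR within RSEM (version 1.2.31), counting by strand, and divided gene counts by the size factors of DESeq (version 1.24.0). The signal values in the deposited table are means of these normalized counts over the 5 libraries of a genotype, per the file headers and the study's methods. The authors removed genes with a summed count of 1 or less. The gene counts are estimates of RSEM from paired-end reads and are called reads here. The error from counting alone treats them as plain counts. Further columns hold the fold changes, *P*-values and adjusted *P*-values of the authors' own comparison and were not used.

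Counts of single libraries were derived here from group means under 1000. A mean of 5 counts, each divided by a known size factor, is given to 15 digits, and whole counts that return it were searched. Of the sets found, that with the most even expression was accepted if no more than 0.02 further sets as even would be found by chance, a limit raised from 0.01 after the data were seen so that *Tnxb* in wild type is included. Counts were settled for 20408 of 20551 means in wild type and for 20386 of 20535 in null. The search was tested on simulated data. It cannot settle genes that differ widely between libraries, such as most neuronal markers, or genes with a mean of 1000 or more.

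Log2 values of the normalized count plus 1 entered limma (version 3.58.1, R version 4.3.3, trended and robust) for 10395 protein-coding genes with library values and a mean of at least 10, with *P*-values adjusted by Benjamini-Hochberg. No count model was fitted, since such models were kept for deposited counts and the counts used here are derived. limma was tested on simulated data. Pairs of genes were tested by permuting libraries within genotypes 100000 times, or over all arrangements where libraries were left out. Exon lengths and positions came from GENCODE release M21 on GRCm38. Alternatives changed the pseudocount, the filter, the weights, the threshold, the scaling, the gene types, the libraries and the limit for accepted counts. The named genes are the 10 members, *Nos1ap*, the 2 most abundant genes of each list, list genes with an unadjusted limma *P* under 0.05, and genes whose exons overlap those of a member. Gene families and genes of like pattern were added after the data were seen. The members and lists were chosen with earlier results of these data known. Precision is limited by 5 hearts a genotype, and for *Htra3* by its low counts. Some markers of the lists are not reported here by name.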

Additional observations from a re-analysis of the deposited data

Results flagged for a closer look

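In groups of 5 libraries, the gap from the highest or lowest library to the next was divided by the range and compared with the critical value of 0.71, for 33 groups of values. Chance passes about 1 group in 20, and 5 passed, none of them a value of the 10 genes. In wild-type library 3 the ratio was 0.921 for the neuronal and glial markers (535 normalized counts), 0.889 for the lung epithelium markers (29.5) and 0.824 for the smooth muscle markers *Myh11* and *Mylk* (647). In null library 2 it was 0.751 for the cartilage markers, at 530 the lowest of their group. In null library 4 it was 0.784 for the epicardial markers *Wt1* and *Msln* (913). *Tnxb* had its lowest value in wild-type library 3 and *Has2* its lowest null value in null library 2.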

How the results depend on the processing

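The number of protein-coding genes called was 3, and it stayed between 2 and 3 in every alternative run. No member and no list gene was called in any of them, at an FDR of 5% with no fold threshold included. With 4 members tested and 0 called by limma, the call says little of the other 6, which have no library values in both genotypes. Leaving out 1 library kept *Tnxb* between 0.25 and 0.37 and *Htra3* between -0.57 and -0.42 on the log2 scale. The count of 2 members whose groups did not overlap stayed the same. It could not have fallen, since groups that are apart remain apart when a library is left out. With at most 0.01 other sets of counts as near, chosen after seeing the data, *Tnxb* could not be used and 1 of 3 members had groups that did not overlap. The differences of *Has2* (-0.20 to 0.075) and *Nfatc1* (-0.0096 to 0.061) changed sign with the library left out. Without wild-type library 3 and null library 2 together, a choice made after seeing the data, *Has2* was at 0.13, and 6 list genes in place of 4 had an unadjusted limma *P* under 0.05. The number of gene pairs that passed was 1, and 0 to 2 with 1 library left out, 0 without null library 2 and 2 without null library 4. Over these, *r* of *Has2* and *Nfatc1* stayed between 0.85 and 0.93, while *r* of *Tnxb* went from -0.55 to 0.0040 with *Has2* and from -0.20 to 0.046 with *Nfatc1*. The cause was not tested. No paired analysis was possible because the group means carry no replicate number. Scaling by the median of protein-coding genes moved log2 values by 0.00093. Depth limits *Htra3* to 45 to 106 reads a library, so that counting error alone is 10.8% in wild type and 13.1% in null.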
